A study of Homo sapiens with 24 samples.

Results

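The Kruppel-like factors described here are 10 transcription factor genes, KLF2, KLF3, KLF4, KLF5, KLF6, KLF7, KLF9, KLF10, KLF11 and KLF13, taken by symbol from both count tables of the series. They are 10 of 28008 genes in the first table and 10 of 60221 in the second, and all 10 passed the filter on low counts in both. RNA was sequenced in 24 libraries of A375, an established melanoma cell line, in 8 groups of 3 biological replicates. All cells were transfected with a pcDNA3.1 plasmid that carries a CAG promoter and puromycin resistance, and were kept for 48 h in 2 µg/mL puromycin with 10% serum before RNA was taken. The plasmid carried SLNCR, a long noncoding RNA (symbol LINC00673), whole or with 1 predicted triplex-forming region (TFR) removed, or it carried no insert. Batch 1 held SLNCR without TFR 1 (ΔTFR1), SLNCR without TFR 2 (ΔTFR2), full-length SLNCR (FL) and empty vector (EV). Batch 2 held SLNCR without TFR 4 (ΔTFR4), SLNCR without TFR 5 (ΔTFR5), and its own FL and EV groups. The study asks which genes these regions regulate. A triplex-forming region is RNA thought to lie in the major groove of a DNA duplex, and such pairing favours a DNA strand with a long run of purines. All groups are of 1 cell line, and the SLNCR insert is carried on the plasmid with the CAG promoter. EV cells, which have no insert, also held some SLNCR. What sets the SLNCR level in each library was not tested.

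Kruppel-like factors bind DNA through zinc fingers near the C terminus that are nearly alike in all of them, and they recognise CACCC boxes and GC boxes, as SP1 does. The other part of each protein differs: KLF5, KLF6 and KLF7 mostly activate, KLF3 recruits the corepressor CtBP, and KLF9, KLF10, KLF11 and KLF13 recruit SIN3A. Cells can switch on KLF2, KLF4, KLF6 and KLF10 soon after a growth factor, stress or TGF-beta signal, before new proteins are needed.

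The start windows of 4 of the genes called in a comparison are shown, since the design concerns DNA that could join a triplex. The windows run from 250 bases before to 50 bases after the RNA start, 5′ to 3′ on the gene's strand, and are RefSeq sequences on build GRCh38.p14. Of the 10 genes 8 had such windows, 13 in all, since KLF5, KLF7 and KLF11 have several listed starts, and KLF3 and KLF10 are only named. Capitals mark the longest run of purines alone or pyrimidines alone in each window. For KLF5 and KLF7 the first listed start is shown.
KLF2, chr19:16324576-16324875, plus strand: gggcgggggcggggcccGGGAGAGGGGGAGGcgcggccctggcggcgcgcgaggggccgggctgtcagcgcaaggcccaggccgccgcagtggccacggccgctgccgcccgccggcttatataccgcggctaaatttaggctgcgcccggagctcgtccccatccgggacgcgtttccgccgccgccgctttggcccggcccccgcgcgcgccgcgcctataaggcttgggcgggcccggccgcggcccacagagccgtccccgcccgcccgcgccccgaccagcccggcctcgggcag
KLF5, chr13:73054726-73055025, plus strand: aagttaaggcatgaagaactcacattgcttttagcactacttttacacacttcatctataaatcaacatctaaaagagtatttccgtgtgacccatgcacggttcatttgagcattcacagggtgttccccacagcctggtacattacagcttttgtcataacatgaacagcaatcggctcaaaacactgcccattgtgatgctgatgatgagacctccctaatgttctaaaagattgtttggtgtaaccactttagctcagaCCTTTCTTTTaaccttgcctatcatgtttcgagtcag
KLF6, chr10:3785160-3785459, minus strand: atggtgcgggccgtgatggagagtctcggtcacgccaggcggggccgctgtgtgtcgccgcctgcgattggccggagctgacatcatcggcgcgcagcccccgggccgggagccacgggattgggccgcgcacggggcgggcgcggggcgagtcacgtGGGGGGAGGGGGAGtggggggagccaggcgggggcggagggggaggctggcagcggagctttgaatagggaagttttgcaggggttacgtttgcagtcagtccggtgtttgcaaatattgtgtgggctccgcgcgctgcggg
KLF7, chr2:207165899-207166198, minus strand: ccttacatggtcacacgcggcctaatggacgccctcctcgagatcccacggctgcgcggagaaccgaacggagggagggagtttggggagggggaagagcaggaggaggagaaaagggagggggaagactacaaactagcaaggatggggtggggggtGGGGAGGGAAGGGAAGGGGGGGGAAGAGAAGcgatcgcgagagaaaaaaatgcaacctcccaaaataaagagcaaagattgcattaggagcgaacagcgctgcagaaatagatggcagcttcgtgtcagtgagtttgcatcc
The KLF7 window at its first listed start holds a run of 31 purines that begins 92 bases before the start, and the longest runs at its other starts are 16, 11 and 21 bases. Runs at least as long are in 0.888% of the 35116 RefSeq windows of this length, whose median longest run is 11 bases. KLF2 and KLF6 each hold 1 of 14 purines, a length that 25.9% of windows reach, and KLF5 holds 1 of 10 pyrimidines, which 72% reach. KLF11 was also called in a comparison, and its windows are not shown. Their longest runs are 8 and 7 bases, which 94.4% and 98.9% of windows reach. KLF4, called in no comparison of the main fit, holds a run of 20 purines, which 6.03% reach. The KLF2 window is 80.7% G and C, a share that 2.06% of windows reach. It holds 6 copies of GGGCGG on either strand, where copies may overlap, and 2.86% of windows hold as many. CACCC on either strand is in 59.9% of all windows and GGGCGG in 45%; of the 13 KLF windows, 7 hold CACCC and 8 hold GGGCGG. On either strand, TGANTCA is in none of the 13 (7.71% of all windows) and TGACGTCA is in 1, the second listed start of KLF11 (1.85% of all windows). These matches describe letters in a window and no binding was measured.

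**Figure D1:**
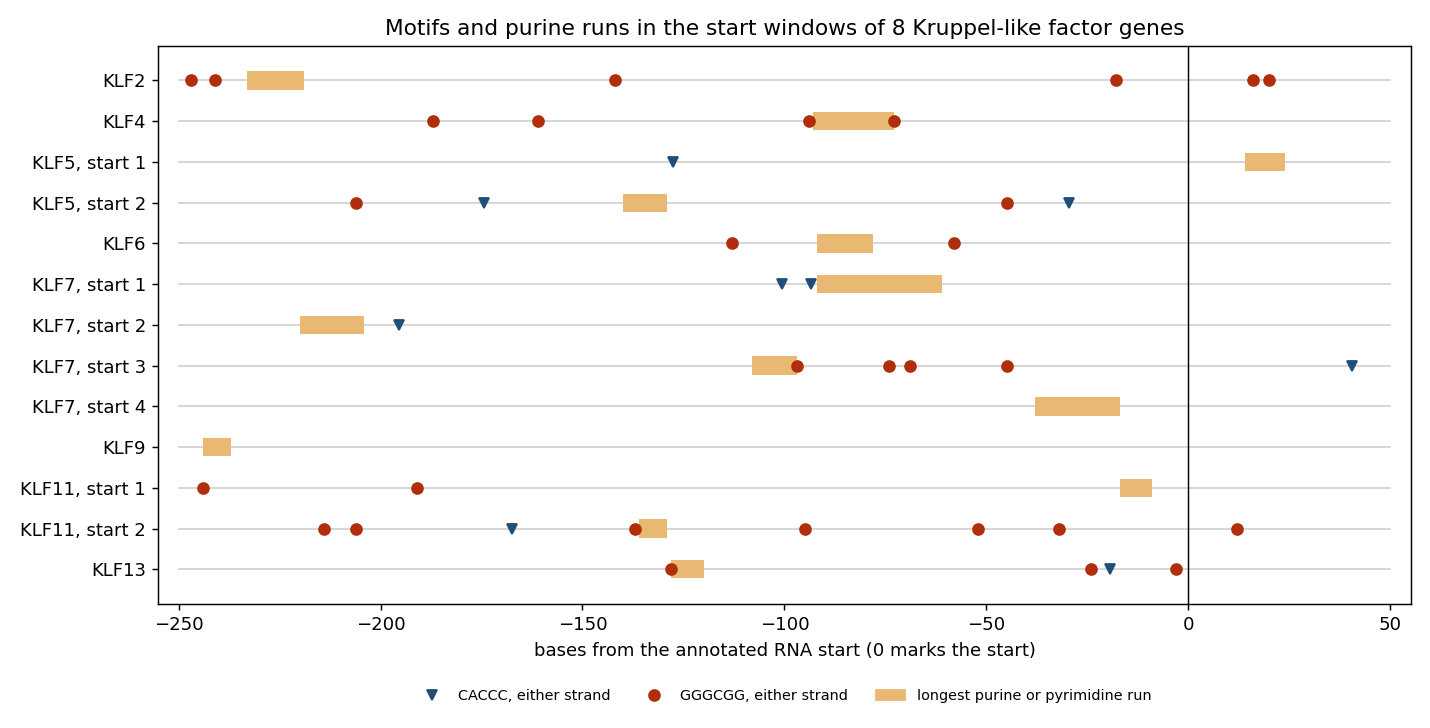
Start windows of 8 Kruppel-like factor genes, 1 row per listed RNA start, by distance in bases from that start. Triangles mark CACCC, circles mark GGGCGG and bars the longest purine or pyrimidine run; the bar of KLF7 at its first start spans 31 bases.

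All groups given an SLNCR plasmid held more SLNCR than EV. SLNCR was read from the gene named LINC00673 in batch 1 and from the gene named LINC00511 in batch 2. In batch 1 it reached 191 to 205 CPM (read counts scaled to library size, with TMM factors) in ΔTFR1 libraries, 187 to 206 in ΔTFR2, 165 to 240 in FL and 18.9 to 20.8 in EV. In batch 2 it reached 444 to 515 CPM in ΔTFR4, 192 to 376 in ΔTFR5, 334 to 728 in FL and 27.9 to 30.1 in EV. A count per gene does not show which region was deleted. A375 was checked by lineage genes: the melanocyte regulators MITF (at least 55.8 CPM) and SOX10 (at least 10.9 CPM) were present in all libraries, while TYR had no count in batch 1 and at most 0.0795 CPM in batch 2. The pigment cell genes PMEL, MLANA and DCT were low, at most 1.90, 2.99 and 0.765 CPM in any library, and S100B had no count in batch 1. The labels call the cells epithelial, yet the epithelial markers EPCAM and CDH1 stayed at or below 0.740 and 5.01 CPM in all libraries. Over 12 markers of other cell types, the sums ran from 110.1 to 134 CPM in batch 1 and from 193 to 264 in batch 2, and nearly all of it was CD68. In batch 2, replicates 1 and 3 of FL stood apart from each other. FL replicate 1 lost 1.05 log2 units between genes of low and high GC content (10th to 90th percentile), where the other 11 libraries of batch 2 lay between -0.11 and 0.26. It also had 2.79 CPM of the leukocyte gene PTPRC, against at most 0.114 in the others. FL replicate 3 had the least SLNCR of the FL group, 334 CPM. SOX10 averaged 45.4 ± 2.52 CPM in FL and 73.9 ± 4.63 CPM in EV of batch 2 (SD, n = 3 each), a log2 fold change of -0.70 ± 0.11 (adjusted p = 0.0227, and 0.104 with GC trends removed). SOX10 also fell in ΔTFR4 and ΔTFR5 over EV, by log2 fold changes of -0.41 (adjusted p = 0.0182) and -0.48 (adjusted p = 0.0187). S100A1 and S100B fell in ΔTFR4 over EV, by -1.50 (adjusted p = 0.00149) and -4.12 (adjusted p = 0.00576). S100B was very low in both groups, with 1 count over the 3 ΔTFR4 libraries and 25 over the 3 EV libraries. Its means were 0.0124 CPM in ΔTFR4 and 0.294 CPM in EV. S100A1 rose in ΔTFR5 over EV, by 1.00 (adjusted p = 0.0145). CDH1 fell in ΔTFR4 and ΔTFR5 over EV, by -2.07 (adjusted p = 0.0387) and -3.17 (adjusted p = 0.0172). Its EV libraries had 3.98, 5.01 and 0.681 CPM, and the third lay inside the ΔTFR4 range of 0.680 to 0.892 CPM. MITF and the keratin KRT14 were lower in ΔTFR5 than in FL, by -1.17 (adjusted p = 0.0327) and -1.68 (adjusted p = 0.0484). MITF had 198, 127 and 80.3 CPM in FL, and replicate 3 lay inside the EV range of 75.2 to 80.6 CPM. KRT14 was low, at 0.998 ± 0.618 CPM in ΔTFR5 and 3.21 ± 1.31 CPM in FL (SD, n = 3 each). S100A1 was higher in ΔTFR5 than in FL, by 1.12 (adjusted p = 0.0312, and 0.054 with GC trends removed). It was lower in ΔTFR4 than in FL, by -1.38 (adjusted p = 0.00935). The part of these markers in the results was not tested. Values without FL replicate 1 or 3 are given for KLF6, KLF7 and KLF10 in FL over EV and for some other member results. For genes other than the members they are not given.

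The levels of the family differed widely within A375. Per kb of the longest annotated transcript, batch 2 EV cells held 21.1 ± 1.38 CPM per kb of KLF6 (SD, n = 3), 19.6 ± 1.14 of KLF4, 16.05 ± 0.999 of KLF5, 13.7 ± 2.45 of KLF2, 12.8 ± 0.330 of KLF10 and 10.9 ± 1.41 of KLF3. KLF9 followed with 6.55 ± 0.679, KLF11 with 4.04 ± 0.255, KLF13 with 2.56 ± 0.108 and KLF7 with 2.13 ± 0.258. The intervals of 1 SD around the mean overlap for KLF6 and KLF4, for KLF5 and KLF2, and for KLF2 with KLF10 and KLF3. The genes were measured in the same 3 libraries and differences between genes were not tested, so the overlap does not show that these neighbours are equal. In batch 1 EV cells, KLF2 was highest at 22.07 ± 2.497 CPM per kb, before KLF6 at 18.3 ± 0.422, KLF5 at 17.8 ± 0.480 and KLF10 at 17.0 ± 0.689, and KLF7 was again lowest at 1.41 ± 0.0148. The tables were counted in different ways, so levels are not compared between batches. All later values are CPM per gene and differences are log2 fold changes (log2FC) ± SE from edgeR's quasi-likelihood test, with p-values adjusted over all genes of the batch. The text says that a gene rose or fell where its adjusted p is under 0.05.

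In batch 2, KLF6, KLF7 and KLF10 rose in FL cells over EV cells, each by more than 2-fold, and no member fell. These are 3 of 10 members, where 1.16% of the 18763 genes tested were called in either direction and 1.03% were called higher. The members' median log2FC was 0.67, beside 0.02 over all genes. All 3 called members, KLF2 and KLF3 lay above EV in all 3 FL libraries, 5 in all, and 1 lay below; 11.8% of all genes lay above in this way and 11.2% below. In RNA from whole cultures, a change in the cells that hold an RNA and a change in RNA per cell cannot be told apart.

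KLF6, an activator first cloned as a core promoter binding protein and induced on injury, had 295.5, 237 and 112 CPM in the FL libraries, against 94.8, 105.7 and 94.4 CPM in EV. All 3 FL libraries were above all 3 EV libraries, and replicate 3 lay close to the EV range. The log2FC was 1.13 ± 0.25 (adjusted p = 0.0496), 2.18-fold. KLF10, also known as TGF-beta inducible early gene, had 142.9, 120.5 and 53.2 CPM in FL, against 48.2, 45.8 and 46.4 CPM in EV. Its order over the FL libraries was that of KLF6, with replicate 3 nearest to EV. The log2FC was 1.17 ± 0.26 (adjusted p = 0.0496), 2.26-fold. KLF7, an activator best known for axon growth, had 57.0, 46.4 and 23.5 CPM in FL, against 19.1, 19.1 and 15.4 CPM in EV. The groups did not overlap, and the log2FC was 1.244 ± 0.24 (adjusted p = 0.0425), 2.37-fold. Without FL replicate 1 the log2FC were 0.83 for KLF6, 0.97 for KLF7 and 0.89 for KLF10, and the adjusted p was 0.156, 0.102 and 0.156. Without FL replicate 2 they were 1.04, 1.16 and 1.05, with adjusted p-values of 0.166, 0.164 and 0.166. Leaving out any 1 EV library also ended the 3 calls, with adjusted p-values of 0.159 to 0.217 and log2FC of 1.09 to 1.29. KLF6 and KLF10 also missed the threshold under RLE scaling (adjusted p = 0.0523 for each) and a stricter filter (0.0555 and 0.0523), and all 3 did in the fit of FL and EV alone (0.349). Without FL replicate 3 they were 1.43, 1.52 and 1.48, with adjusted p-values of 2.02e-05, 2.21e-05 and 1.35e-05.

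The other 7 members were not called in that comparison. KLF2, a factor of quiescent endothelium and T cells, had 42.7, 72.9 and 39.5 CPM in FL, against 30.7, 30.1 and 21.9 CPM in EV. The groups did not overlap, and the log2FC of 0.90 ± 0.21 missed the threshold (adjusted p = 0.0585). It passed with GC trends removed (1.16, adjusted p = 0.038), with no filter on low counts (0.00723), with DESeq2 (0.00395) and without FL replicate 3 (0.00218). It did not pass under RLE scaling, a stricter filter or the fit of FL and EV alone. Nor did it pass without FL replicate 1, FL replicate 2 or any 1 EV library. KLF5, which drives proliferation in epithelia, had 130.4, 100.8 and 55.01 CPM in FL, against 57.8, 60.4 and 53.4 CPM in EV. FL replicate 3 lay inside the EV range, and the log2FC was 0.74 ± 0.23 (adjusted p = 0.0872). KLF3, the CtBP-recruiting repressor, averaged 85.1 ± 24.4 CPM in FL and 55.9 ± 7.21 CPM in EV (SD, n = 3 each), a log2FC of 0.61 ± 0.18 (adjusted p = 0.0778). KLF4, one of the reprogramming factors, had a log2FC of 0.30 ± 0.12 (adjusted p = 0.145). KLF9, a glucocorticoid target, had one of 0.29 ± 0.14 (adjusted p = 0.199). KLF11, close to KLF10 in sequence, averaged 13.4 ± 2.36 CPM in FL and 16.3 ± 1.03 CPM in EV, with each FL library below each EV library, and the log2FC was -0.29 ± 0.15 (adjusted p = 0.237). KLF13, an activator of CCL5 in T cells, had a log2FC of -0.17 ± 0.18 (adjusted p = 0.563).

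**Figure D2:**
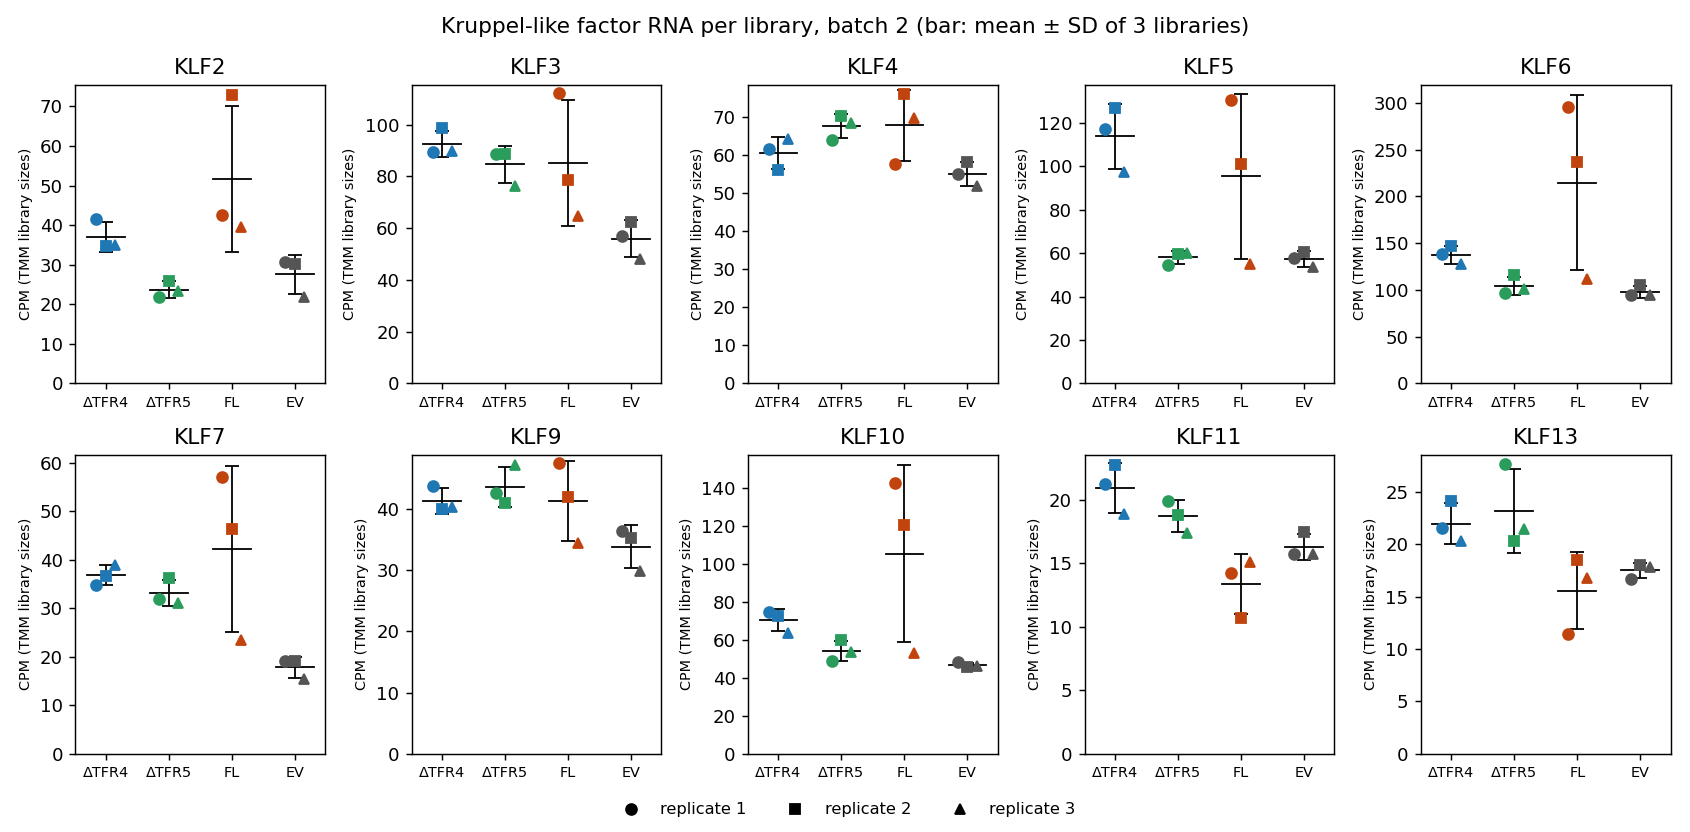
CPM of each Kruppel-like factor in the 12 libraries of batch 2, by group; points are libraries and bars the mean ± SD of 3. The FL points are spread widely for KLF5, KLF6, KLF7 and KLF10 (KLF6: 112 to 295.5 CPM), while ΔTFR4 points lie close together (KLF6: 128 to 147 CPM).

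The SLNCR deletions of batch 2 were set against the same EV libraries. With ΔTFR4, KLF3, KLF5 and KLF7 rose and no member fell: 3 of 10, where 23.9% of genes were called and 12.5% were called higher. All 10 members had a log2FC above 0, and 9 lay above EV without overlap, as 29.2% of all genes did; their median log2FC was 0.46, beside 0.02 over all genes. KLF5 had 117, 127 and 97.3 CPM in ΔTFR4, against 57.8, 60.4 and 53.4 CPM in EV, a log2FC of 0.99 ± 0.23 (adjusted p = 0.0088). KLF7 had 34.8, 36.6 and 38.9 CPM in ΔTFR4, against 19.1, 19.1 and 15.4 CPM in EV, a log2FC of 1.04 ± 0.24 (adjusted p = 0.00878). For both genes the ΔTFR4 libraries were all well clear of the EV range, and every library could be left out in turn without losing the call. KLF3 had 89.3, 98.5 and 89.7 CPM in ΔTFR4, against 57.1, 62.5 and 48.2 CPM in EV, a log2FC of 0.73 ± 0.18 (adjusted p = 0.0109); without EV replicate 3 it was 0.62 (adjusted p = 0.0598). KLF6 and KLF10, called with FL, averaged 138 ± 9.46 and 70.3 ± 5.80 CPM in ΔTFR4, against 98.3 ± 6.43 and 46.8 ± 1.21 CPM in EV (SD, n = 3 each). They had log2FC of 0.49 ± 0.25 (adjusted p = 0.174) and 0.59 ± 0.26 (adjusted p = 0.113). Fitted with ΔTFR4 and EV alone, they had 0.48 (adjusted p = 1.87e-05) and 0.58 (adjusted p = 3.71e-06), and 9 of 10 members were called, all but KLF4. The share of all genes called in that fit is not given, so the 9 of 10 is not a result about the family.

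With ΔTFR5, KLF3 and KLF7 rose over EV and no member fell, 2 of 10, where 10.2% of genes were called and 5.48% were called higher. KLF7 had 32.0, 36.3 and 31.2 CPM in ΔTFR5, against 19.1, 19.1 and 15.4 CPM in EV, a log2FC of 0.89 ± 0.24 (adjusted p = 0.035). KLF3 had 88.7, 88.8 and 76.3 CPM in ΔTFR5, against 57.1, 62.5 and 48.2 CPM in EV, a log2FC of 0.60 ± 0.18 (adjusted p = 0.0476). Neither group overlapped with EV, and both calls were lost when any of the 6 libraries was left out, with adjusted p-values of 0.0576 to 0.144 for KLF7 and 0.0549 to 0.195 for KLF3. KLF5 had 54.5, 59.8 and 59.9 CPM in ΔTFR5, all inside the EV range, and its log2FC was 0.02 ± 0.23 (adjusted p = 0.968). The 6 members above EV without overlap were KLF3, KLF4, KLF7, KLF9, KLF10 and KLF13, where 22.8% of all genes were. KLF7 was the 1 member called over EV with ΔTFR4, ΔTFR5 and FL, 3 comparisons that share the EV libraries.

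**Figure D3:**
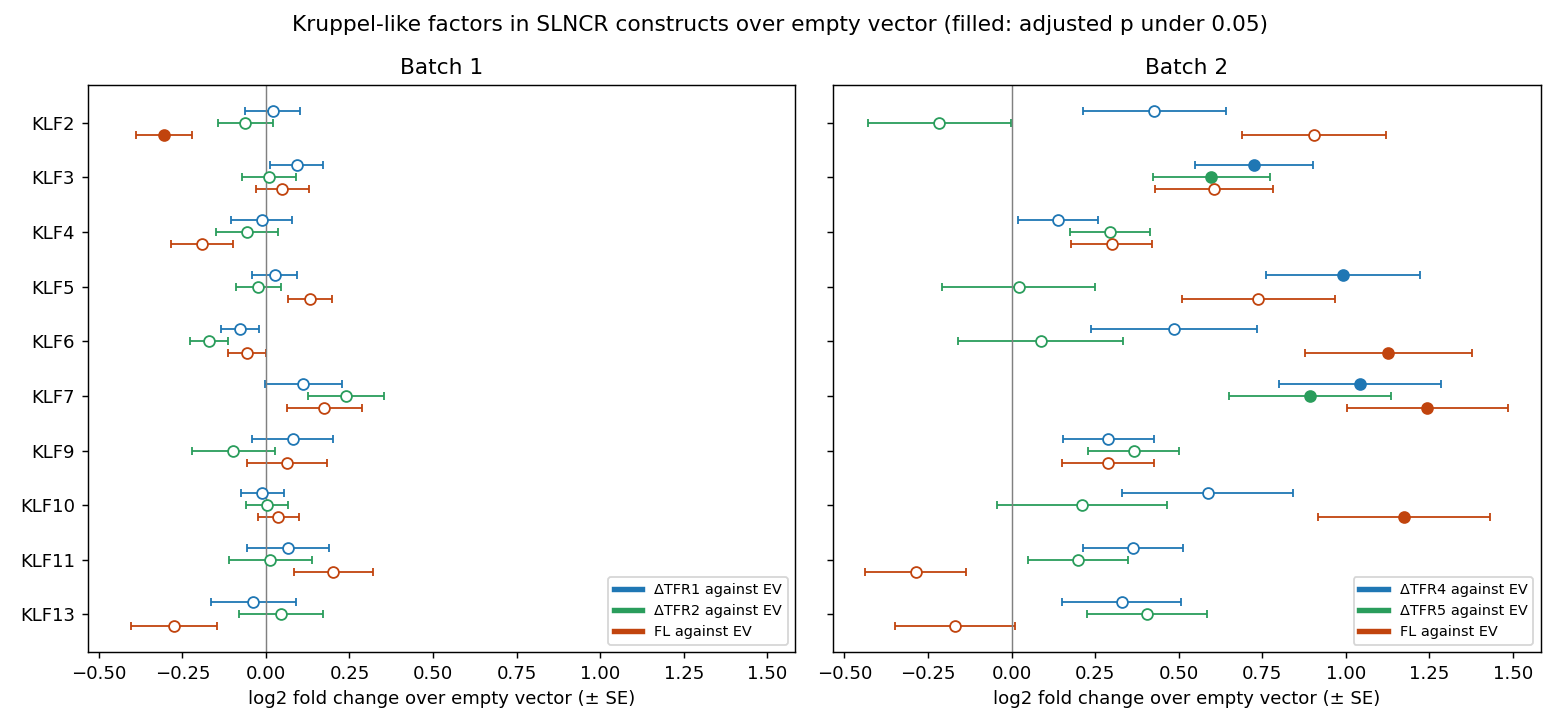
Log2 fold change ± SE of each Kruppel-like factor in 3 SLNCR constructs over empty vector, batch 1 on the left and batch 2 on the right; filled points have an adjusted p under 0.05. In batch 1 all values lie between -0.30 and 0.24, and in batch 2 KLF7 is filled for all 3 constructs.

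Set against FL, the deletions of batch 2 moved 1 member each. In ΔTFR4 cells KLF11 rose, 1 of 10, where 4.36% of genes were called and 1.9% called higher. KLF11 had 21.2, 22.8 and 18.9 CPM in ΔTFR4, against 14.3, 10.7 and 15.1 CPM in FL. The groups did not overlap, with FL replicate 2 lowest of all, and the log2FC was 0.65 ± 0.15 (adjusted p = 0.032). The call was lost without any 1 of the 3 ΔTFR4 libraries (adjusted p of 0.0746 to 0.145). In ΔTFR5 cells KLF2 fell, 1 of 10, where 1.38% of genes were called and 0.554% called lower. KLF2 had 21.9, 26.0 and 23.3 CPM in ΔTFR5, against 42.7, 72.9 and 39.5 CPM in FL. All 3 ΔTFR5 libraries were below all 3 FL libraries and inside the EV range of 21.9 to 30.7 CPM, and the log2FC was -1.12 ± 0.22 (adjusted p = 0.028). The adjusted p was 0.0501 without FL replicate 2, the highest library, and 0.0557 to 0.157 without 1 of the ΔTFR5 libraries. KLF6 and KLF10 missed the threshold in ΔTFR5 against FL, with log2FC of -1.04 ± 0.25 (adjusted p = 0.0584) and -0.96 ± 0.26 (adjusted p = 0.0742). In ΔTFR4 against FL they had -0.64 ± 0.25 (adjusted p = 0.145) and -0.59 ± 0.25 (adjusted p = 0.188).

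Without FL replicate 3, which lay nearest to EV, further members passed against FL. The share of all genes called in that fit is not given, so these counts are not read as particular to the family. KLF6, KLF7 and KLF10 then fell in ΔTFR4, with log2FC of -0.95, -0.49 and -0.91 (adjusted p of 0.00172, 0.0372 and 0.00193). In ΔTFR5, 7 members were then called, 5 lower and 2 higher. The lower ones included KLF5 at -0.99, KLF6 at -1.35 and KLF10 at -1.28 (adjusted p of 0.000757, 0.000119 and 0.000124), and the higher ones were KLF11 at 0.58 and KLF13 at 0.63 (adjusted p of 0.0201 and 0.0411). KLF11 in ΔTFR4 was called without each FL library in turn (adjusted p of 0.013 to 0.0421).

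No member was called between ΔTFR5 and ΔTFR4, where 0.453% of genes were. The widest difference was that of KLF5, whose 54.5, 59.8 and 59.9 CPM in ΔTFR5 were all below its 117, 127 and 97.3 CPM in ΔTFR4. Its log2FC was -0.97 ± 0.23 (adjusted p = 0.128) with edgeR and -0.97 (adjusted p = 0.00925) with DESeq2, which called KLF5 alone. KLF2 averaged 23.7 ± 2.07 CPM in ΔTFR5 and 37.1 ± 3.77 CPM in ΔTFR4 (SD, n = 3 each), a log2FC of -0.64 ± 0.21 (adjusted p = 0.355). At an unadjusted p under 0.05, 2 of the 10 members and 1820 of all genes passed. Members lower in ΔTFR5 without overlap were 5 of 10, where 14.2% of all genes were.

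The order of the batch 2 groups differed from gene to gene. KLF6 averaged 138 CPM in ΔTFR4, 104 in ΔTFR5, 215 in FL and 98.3 in EV, and KLF10 had the same order at 70.3, 54.1, 105.6 and 46.8 CPM. In each, FL passed the test against EV and no other pair of groups did. KLF5 was highest in ΔTFR4 at 114 CPM, then FL at 95.4, ΔTFR5 at 58.1 and EV at 57.2. KLF2 was highest in FL at 51.7 CPM, then ΔTFR4 at 37.1, EV at 27.6 and ΔTFR5 at 23.7, and of these pairs ΔTFR5 against FL passed. KLF11 and KLF13 had their lowest means in FL, 13.4 and 15.6 CPM, below EV at 16.3 and 17.5 CPM. Within the FL group the highest library exceeded the lowest by 2.64-fold for KLF6, 2.69-fold for KLF10, 2.42-fold for KLF7 and 2.37-fold for KLF5. Within EV the same ratios were 1.12, 1.05, 1.244 and 1.13.

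Immediate-early genes moved beside these members in the same libraries. The summed level of 15 of them was 2065, 2045 and 2225 CPM in ΔTFR4, 1007, 1469 and 564 in ΔTFR5, 1577, 2322 and 668 in FL, and 541, 562 and 577 in EV. FL replicate 3 and ΔTFR5 replicate 3 were near EV in this sum, and they were also the libraries of their groups with the least SLNCR, 334 and 192 CPM. The ΔTFR4 sums lay between those of FL replicates 1 and 2, while KLF6 was at 128 to 147 CPM in ΔTFR4 and at 237 and 295.5 CPM in those FL libraries. Whether the SLNCR level or the immediate-early genes have a part in the KLF levels was not tested. Of the 15 immediate-early genes 11 rose in ΔTFR4 over EV, none in ΔTFR5 over EV and 3 in FL over EV, and none was called in either deletion against FL. Over all genes tested, 12.5%, 5.48% and 1.03% were called higher in those 3 comparisons with EV. In batch 1, 0 of the 13 tested rose and FOSB, JUN and IER2 fell in FL against EV, where 22.7% of all genes were called. Of the 13, 2 were higher in each deletion than in FL, where 10.1% of genes were called for ΔTFR1 and 10% for ΔTFR2. None of these batch 1 calls held with GC trends removed. The 3 called in FL over EV of batch 2 were DUSP1, MYC and ATF3. DUSP1, a phosphatase of MAP kinases, averaged 66.8 ± 28.96 CPM in FL and 23.3 ± 3.03 CPM in EV, with a log2FC of 1.52 ± 0.28 (adjusted p = 0.042). MYC had 1.82 ± 0.39 (adjusted p = 0.0496) and ATF3 1.81 ± 0.38 (adjusted p = 0.0433).

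**Figure D4:**
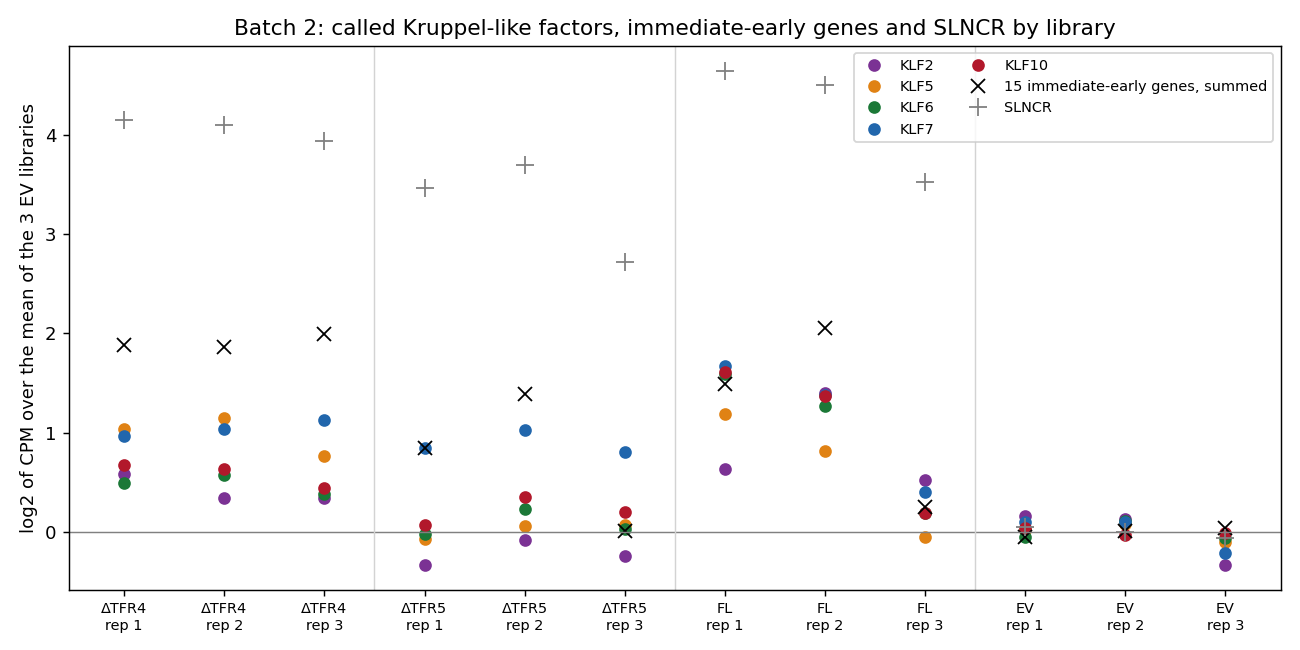
Log2 of CPM over the mean of the 3 EV libraries, for 5 Kruppel-like factors, the sum of 15 immediate-early genes (crosses) and SLNCR (plus signs), 1 column per batch 2 library. FL replicate 3 lies near 0 for KLF5, KLF6 and KLF10 (55.01, 112 and 53.2 CPM), whereas FL replicates 1 and 2 lie well above.

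In batch 1 the family stayed within narrow bounds. KLF2 fell in FL against EV and no member rose: 1 of 10, where 22.7% of the 14310 genes tested were called and 11.3% were called lower. KLF7 and KLF11 lay above EV without overlap, where 17.9% of all genes did, and KLF2, KLF4 and KLF13 lay below, where 18.7% did. KLF2 had 36.0, 38.1 and 34.2 CPM in FL, against 50.3, 42.0 and 41.3 CPM in EV, a log2FC of -0.30 ± 0.08 (adjusted p = 0.00961). All FL libraries were below all EV libraries, and EV replicate 1 was the highest; without it the log2FC was -0.19 (adjusted p = 0.156). In ΔTFR1 against FL, KLF2 rose, 1 of 10, where 10.1% of genes were called and 4.4% called higher. KLF2 had 48.2, 44.3 and 43.2 CPM in ΔTFR1, against 36.0, 38.1 and 34.2 CPM in FL, a log2FC of 0.32 ± 0.08 (adjusted p = 0.0176). That call was lost without FL replicate 1, FL replicate 3 or ΔTFR1 replicate 1 (adjusted p of 0.0554, 0.0756 and 0.122). In ΔTFR2 against FL no member was called, where 10% of genes were; KLF2 had 38.6, 44.1 and 45.5 CPM in ΔTFR2, a log2FC of 0.24 ± 0.08 (adjusted p = 0.0605).

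The KLF2 transcript has the highest GC content of the members, 65.2%, and the libraries of batch 1 differed by GC content. From the 10th to the 90th percentile of gene GC, the trend was 0.01 to 0.14 log2 units in ΔTFR1, 0.02 to 0.11 in ΔTFR2, -0.43 to -0.12 in FL and 0.03 to 0.25 in EV. With these trends removed the log2FC of KLF2 was -0.04 in FL against EV (adjusted p = 0.871) and 0.11 in ΔTFR1 against FL (adjusted p = 0.565), and no member was called in either. Over all genes, 2.28% were then called in FL against EV and 0.119% in ΔTFR1 against FL.

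Other members of batch 1 were not called in any comparison. KLF7 had 13.03, 13.3 and 13.8 CPM in FL, against 11.8, 11.7 and 11.9 CPM in EV, which did not overlap, with a log2FC of 0.17 ± 0.11 (adjusted p = 0.268). KLF5 had 73.4, 62.3 and 73.7 CPM in FL, against 61.7, 64.9 and 64.2 CPM in EV. Its FL replicate 2 lay inside the EV range; the log2FC was 0.13 ± 0.07 (adjusted p = 0.145) with it and 0.22 (adjusted p = 0.0128) without it. Leaving it out also put KLF5 past the threshold in ΔTFR1 and in ΔTFR2 against FL, with log2FC of -0.19 (adjusted p = 0.0381) and -0.24 (adjusted p = 0.0102). KLF6 had 78.7, 83.8 and 82.8 CPM in FL, against 84.6, 83.3 and 87.2 CPM in EV, a log2FC of -0.06 ± 0.06 (adjusted p = 0.506). KLF10 had 64.4, 60.4 and 66.2 CPM in FL, against 59.9, 64.8 and 61.3 CPM in EV, a log2FC of 0.04 ± 0.06 (adjusted p = 0.711). Both KLF6 and KLF10 overlapped between the groups. KLF4 averaged 30.5 ± 2.92 CPM in FL and 34.9 ± 0.936 CPM in EV, a log2FC of -0.19 ± 0.09 (adjusted p = 0.13). KLF13 averaged 10.5 ± 0.958 CPM in FL and 12.8 ± 1.32 CPM in EV, a log2FC of -0.28 ± 0.13 (adjusted p = 0.118). KLF11 averaged 13.4 ± 0.514 CPM in FL and 11.7 ± 0.984 CPM in EV, a log2FC of 0.20 ± 0.12 (adjusted p = 0.224). KLF3 and KLF9 had log2FC of 0.05 ± 0.08 (adjusted p = 0.695) and 0.06 ± 0.12 (adjusted p = 0.744).

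**Figure D5:**
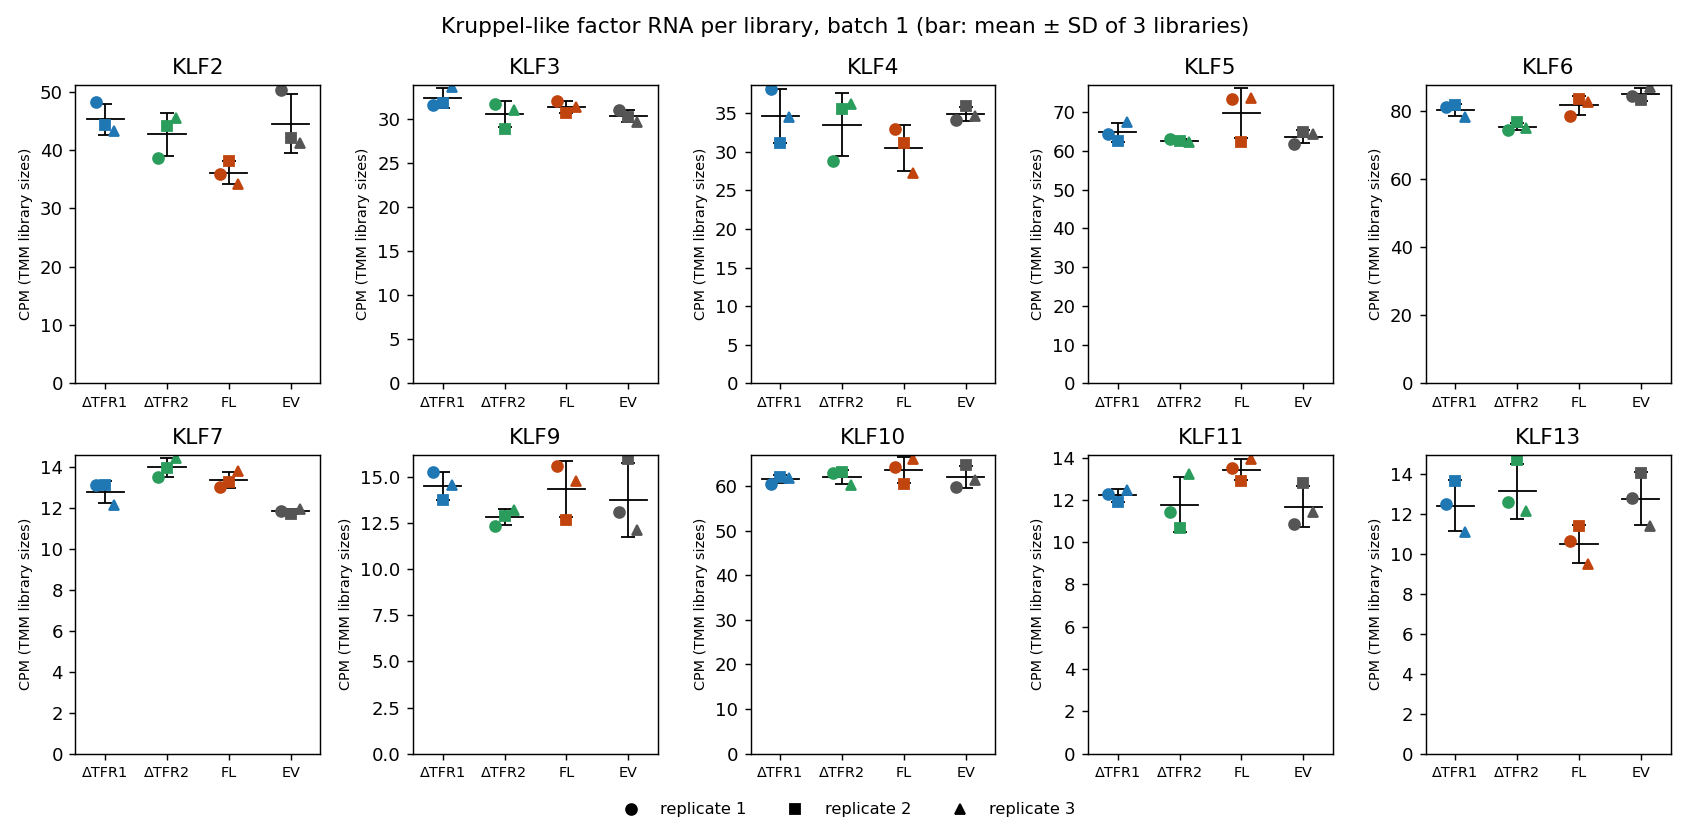
CPM of each Kruppel-like factor in the 12 libraries of batch 1, by group; points are libraries and bars the mean ± SD of 3. KLF2 sits lowest in FL (34.2 to 38.1 CPM, against 41.3 to 50.3 in EV), and KLF13 also has its lowest group mean in FL (10.5 CPM).

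Against EV, the deletions of batch 1 gave no call among the members, where 0.00699% of genes were called for ΔTFR1 and 0.014% for ΔTFR2 by edgeR. At an unadjusted p under 0.05, 0 of 10 members and 589 of all genes passed for ΔTFR1, and 2 of 10 members and 597 of all genes for ΔTFR2. The 2 members were KLF6 and KLF7, which lie outside the called genes and are named for their unadjusted p. KLF6 had 74.7, 76.9 and 75.1 CPM in ΔTFR2, against 84.6, 83.3 and 87.2 CPM in EV, a log2FC of -0.17 ± 0.06. KLF7 had 13.5, 14.0 and 14.4 CPM in ΔTFR2, against 11.8, 11.7 and 11.9 CPM in EV, a log2FC of 0.24 ± 0.11. In neither gene did the groups overlap. Between ΔTFR2 and ΔTFR1, 0 members and 0% of all genes were called, and 0 members and 551 genes passed at an unadjusted p under 0.05. DESeq2 called 0 members in these 3 comparisons.

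Of 7 further KLF genes, 5 were tested in batch 2, and KLF15, a glucocorticoid-responsive factor of metabolism, was called. It averaged 16.5 ± 1.19 CPM in ΔTFR4, 9.17 ± 4.33 in ΔTFR5, 7.48 ± 4.07 in FL and 3.16 ± 0.496 in EV (SD, n = 3 each). Its log2FC was 2.38 ± 0.42 in ΔTFR4 over EV (adjusted p = 0.00246) and 1.54 ± 0.42 in ΔTFR5 over EV (adjusted p = 0.0366). In each of these comparisons it was the 1 gene of 5 called, where 23.9% and 10.2% of all genes were called. In batch 1, where 3 were tested, KLF12 rose by 0.39 ± 0.12 (adjusted p = 0.0156) and KLF16 fell by 0.47 ± 0.09 (adjusted p = 0.00136) in FL against EV. KLF16 was higher in ΔTFR2 than in FL by 0.33 ± 0.10 (adjusted p = 0.0298). With GC trends removed none of these 3 batch 1 calls held (adjusted p of 0.328, 0.285 and 0.631). Over all genes, 22.7% were called in FL against EV of batch 1 and 10% in ΔTFR2 against FL. In FL against EV of batch 2, 1.16% were. Of the 9 SP factors, which bind the same boxes, 0 of 6 tested were called in FL against EV in batch 2 and SP3 rose by 0.18 ± 0.06 in batch 1 (adjusted p = 0.0193), which did not hold with GC trends removed (adjusted p = 0.945).

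Partners and upstream routes were counted from fixed lists. Over all genes, 22.7% were called in FL against EV of batch 1, 10.1% in ΔTFR1 against FL and 10% in ΔTFR2 against FL. In batch 2 the shares were 1.16% in FL against EV, 4.36% in ΔTFR4 against FL and 1.38% in ΔTFR5 against FL. Against EV they were 23.9% with ΔTFR4 and 10.2% with ΔTFR5. Of 10 corepressors and coactivators, none was called in batch 2 with FL over EV or with a deletion against FL, while SIN3A and HDAC2 fell in ΔTFR4 against EV, HDAC2 not with GC trends removed (adjusted p = 0.0859). SIN3A, the scaffold that KLF9, KLF10, KLF11 and KLF13 bind, averaged 104 ± 2.41 CPM in ΔTFR4 and 160 ± 3.40 CPM in EV, a log2FC of -0.62 ± 0.13 (adjusted p = 0.00521). In batch 1 with FL against EV, 1 of the 10 rose, HDAC2, and 4 fell, CTBP1, CREBBP, SIN3B and HDAC3, all within 0.29 log2 units, and none was called with GC trends removed. CTBP1 and CREBBP were higher in ΔTFR1 than in FL, and CTBP1 and SIN3B were higher in ΔTFR2 than in FL; with GC trends removed none of these 4 calls held (adjusted p of 0.348 to 0.876). On the ERK5 route, in which MAP2K5 activates ERK5 and MEF2 factors switch on KLF2 and KLF4, 0 of 6 genes were called in FL over EV in batch 2. MEF2D rose by 0.74 ± 0.17 (adjusted p = 0.00878) and MAP2K5 by 0.65 ± 0.14 (adjusted p = 0.00563) in ΔTFR4 over EV, where KLF2 and KLF4 were not called. MAP2K5 also rose in ΔTFR5 over EV, by 0.50 ± 0.14 (adjusted p = 0.0357).

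On the TGF-beta route, which induces KLF10 and KLF11, SMAD7 was lower in both deletions than in FL in batch 2. SMAD7, the inhibitory SMAD, averaged 8.60 ± 1.02 CPM in ΔTFR4 and 9.35 ± 0.673 CPM in ΔTFR5, against 18.4 ± 2.15 CPM in FL. Its log2FC were -1.10 ± 0.16 (adjusted p = 0.00404) and -0.98 ± 0.16 (adjusted p = 0.0133). SKIL, a SMAD corepressor, fell in ΔTFR4 against FL by 0.98 ± 0.20 on the log2 scale (adjusted p = 0.0208). In ΔTFR4 against EV, 1 of 10 rose (SMAD2) and 4 fell (TGFBR1, SMAD7, TGFB1 and SMAD3). In batch 1 with FL against EV, SKIL, SMAD2, SMAD4 and TGFBR2 rose and TGFB1 fell, each by at most 0.23 log2 units, and none held with GC trends removed.

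On the glucocorticoid route to KLF9, TSC22D3, known as GILZ, averaged 6.02 ± 3.22 CPM in FL and 1.51 ± 0.229 CPM in EV in batch 2, a log2FC of 1.99 ± 0.37 (adjusted p = 0.0425). FKBP5 fell in ΔTFR4 against FL by 0.81 ± 0.14 (adjusted p = 0.0112), and it was the 1 gene of 4 tested called there. None was called in ΔTFR5 against FL. In ΔTFR4 over EV, TSC22D3 and PER1 rose and FKBP5 fell. In batch 1, FKBP5 and NR3C1 rose in FL over EV, 2 of 4, and NR3C1 was lower in ΔTFR2 than in FL; none of these calls held with GC trends removed (adjusted p of 0.524, 0.886 and 0.771). Of 8 ubiquitin ligases that act on KLF proteins, none was called in FL over EV in either batch; BTRC rose in ΔTFR4 over EV and SIAH1 was lower in ΔTFR2 than in FL, a call lost with GC trends removed (adjusted p = 0.37). Of 10 genes described as KLF targets, 10 were tested in batch 2 and none was called in FL over EV or in a deletion against FL. In ΔTFR4 against EV, 2 rose and 4 fell, where 23.9% of all genes were called and 12.5% were called higher. CDKN1A, the cell cycle inhibitor p21 that KLF4 and KLF6 induce, rose by 0.84 ± 0.20 (adjusted p = 0.0103), and S1PR1, a KLF2 target in T cells, rose by 0.76 ± 0.21 (adjusted p = 0.0182). CCNB1 fell by 1.52 ± 0.29 on the log2 scale (adjusted p = 0.00341) and CCNE1 by 0.99 ± 0.21 (adjusted p = 0.00527), both cyclins, and CCND1 and PPARG fell too. In batch 1, CDKN1A was higher in ΔTFR2 than in FL by 0.14 ± 0.05 (adjusted p = 0.045, and 0.966 with GC trends removed), and no target was called in FL against EV.

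Some genes followed a member closely over the 12 libraries of a batch. Likeness was the root-mean-square difference of centred log2 CPM among genes averaging 1 or more on the log2 CPM scale, of which batch 2 had 13099 and batch 1 had 12983. In batch 2, KLF6 and KLF10 were each the other's nearest gene, at 0.079 log2 units, beside SDs of their own of 0.51 and 0.51. Next after KLF10 came SNHG1 and LETM2 for KLF6, and ETS1 and LINC00339 followed KLF6 for KLF10. KLF2 was nearest to CCN1, at 0.17 log2 units, then SHLD3 and ZNF670. KLF3 was nearest to ZNF484, at 0.067, then FAM13B and RGMB, and KLF5 to HDAC9, at 0.13, then BNC1 and PVT1. KLF7 was nearest to LINC02128, at 0.12, then MTMR11 and SPRY4, and KLF11 to ZMAT3, at 0.076, then ATP8A1 and NALCN. In batch 1, KLF2 was nearest to XRCC1, at 0.058, then SYNPO and FXR2, in libraries that share the GC trends given above. These likenesses describe 12 libraries that share depth, batch and treatment, and carry no test.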

How the data were processed

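RNA depleted of rRNA was sequenced as paired Illumina reads. The authors deposited whole-number read counts per gene symbol for batch 1 and estimated counts per Ensembl gene from salmon for batch 2, per the file headers. Per the submitters' processing notes, the tools included STAR 2.7.3a, Subread 1.6.2, cutadapt 2.5, FastQC 0.11.5 and DESeq2 1.24.0, and builds GRCh38 and GRCm38 are listed without a role. Which salmon version, annotation and strand option were used is not given in the sources used here. Some libraries were taken over from a former series, which ones is not said in the design text. Estimated counts were rounded. The batches were fitted apart, all 4 groups together, by edgeR 4.0.16 under R 4.3.3 (low counts filtered by filterByExpr at 10, TMM, robust quasi-likelihood test, Benjamini-Hochberg adjustment over all genes tested, 0.05). The SE is the absolute log2 fold change over the square root of F. Totals were 8627449 to 10789211 counts in batch 1 and 24810226 to 33063445 in batch 2, and the common biological coefficient of variation was 0.0503 and 0.212. No replicates were duplicates: their chi-square per gene was 1.48 or more. GC content was taken from the longest GENCODE 29 transcript. The fit was tested on simulated data. Alternatives were DESeq2 1.42.0, RLE scaling, other filters, GC trends removed, a replicate block, fits of 2 groups and each library left out. Named genes are every member, up to 4 called genes of each other list with the lowest adjusted p, and the 3 genes most alike to each called member. The members and lists were chosen with earlier results of these data known. The result of a listed gene is not reported here.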

Additional observations from a re-analysis of the deposited data

Results flagged for a closer look

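KLF2 moved in opposite directions in the FL against EV comparison of the 2 batches, with each FL library beyond each EV library: its log2 fold change was -0.30 in batch 1 and 0.90 in batch 2. KLF11 did the reverse, with 0.20 in batch 1 and -0.29 in batch 2. These are 2 of the 10 members. The share of all genes that moved in opposite directions in this way is not given, so the count is not read as a result about the family. Within each batch such separation was common. In batch 1, 17.9% of all genes lay above EV in all FL libraries and 18.7% below, and in batch 2 11.8% and 11.2% did. The difference between batches was not tested, since the tables were counted in different ways. Of the 4 values only that of KLF2 in batch 1 had an adjusted p under 0.05 in edgeR, and with GC trends removed it was -0.04 (adjusted p = 0.871). KLF2 in batch 2 was then 1.16 (adjusted p = 0.038).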

How the results depend on the processing

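Over all alternatives, 1570 log2FC values of single members stayed on their side of the threshold, 57 gained a call and 53 lost one. Among values called in the main fit or the alternative, 0 changed sign, and values called in neither were not checked for this. In FL over EV of batch 2, KLF6 and KLF10 each lost the call in 8 of 14 alternatives. In ΔTFR4 over EV, KLF5 and KLF7 lost it in 0 of 14. Counts below are members called, and for most of these alternatives the share of all genes called is not given. In batch 1, FL against EV gave 1, and 0 with GC trends removed, with or without the replicate block (0 to 2 with 1 library left out); ΔTFR1 against FL gave 1, and 0 in the same GC fits (0 to 2); ΔTFR2 against FL gave 0, and 1 with the replicate block, KLF2 at 0.25 (adjusted p = 0.0401) (0 to 2). In batch 2, FL against EV gave 3, with 1 under RLE scaling or the strict filter, 5 with no filter or GC trends removed, 6 with GC trends removed and the block or in DESeq2, 0 in the fit of 2 groups, and 4 with the replicate block, which added KLF2 (adjusted p = 0.0423) (0 to 7). ΔTFR4 against FL gave 1, with 2 in both GC fits and 0 in the fit of 2 groups (0 to 4). ΔTFR5 against FL gave 1, with 2 in both GC fits, 6 in DESeq2 and 0 in the fit of 2 groups (0 to 7). ΔTFR4 against EV gave 3, with 9 in the fit of 2 groups (2 to 3). ΔTFR5 against EV gave 2, with 1 under RLE scaling, 4 in both GC fits and 5 in the fit of 2 groups (0 to 0). ΔTFR5 against ΔTFR4 gave 0, with 1 with no filter or in DESeq2 and 4 in the fit of 2 groups. The cause was not tested. Over all genes, GC removal took the calls in FL against EV of batch 1 to 326 of 14310, against 3247 before. Deviations of same-numbered replicates had r of -0.127 to 0.180 in batch 1 and -0.142 to 0.197 in batch 2. Of 18 such pairs in each batch, r was over 0.1 in 3 in batch 1 and in 4 in batch 2. Differently numbered replicates were not compared, so whether the numbers pair the samples was not settled.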
